A study of Homo sapiens with 6 samples.

Results

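The cyclins that open the G1 phase and the inhibitors that hold their kinases in check were followed as 10 genes: the D-type cyclins CCND1, CCND2 and CCND3, the E-type cyclins CCNE1 and CCNE2, the CIP/KIP inhibitors CDKN1A (p21), CDKN1B (p27) and CDKN1C (p57), and the INK4 inhibitors CDKN2B (p15) and CDKN2C (p18). They were chosen by gene symbol, and all 10 were found among the 27216 rows of the expression table. RNA-sequencing was performed on H1975 cells, a human line from a non-small cell lung cancer with mutant EGFR, whose genotype is labelled WT. The parental group held 3 samples (Osi for 0 h, in columns named for DMSO) and the adapted group held 3 samples (Osimertinib, Osi, an EGFR tyrosine kinase inhibitor, at 1000 nM for 72 h). The cells of both groups were grown with serum, in DMEM by the labels, while the study's methods name another medium. In the adapted group the RNA was taken from the cells that stayed after dying cells were washed away. The groups therefore differ in survival and time in culture as well as in drug, and these cannot be told apart.

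A cell that leaves G1 first builds complexes of a D-type cyclin with CDK4 or CDK6 and then of an E-type cyclin with CDK2, which together phosphorylate RB and release the E2F factors that transcribe the genes of S phase. The INK4 proteins bind CDK4 and CDK6 and keep the D-type cyclins off them. The CIP/KIP proteins bind the assembled complexes, inhibit those of CDK2, and can also help D-type cyclins join CDK4. In many epithelial cells signaling from growth factor receptors through ERK raises cyclin D1, while p15 is best known as a gene induced by TGF-beta and p57 as an imprinted gene expressed from the maternal allele.

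The 2 members that moved furthest in opposite directions are shown by the DNA just upstream of their starts, where their transcription begins. Promoter windows from 250 bases before to 50 after a start were found in RefSeq (GRCh38.p14) for 6 of the 10 genes, 10 windows in all. Each run below is the longest part of a window's upstream bases that is free of GENCODE v29 exons, written along the gene's own strand. CCND3 has 3 windows, and the one shown was picked for its TEAD match, although a run of 250 bases free of exons lies before another start. A TEAD match at both genes thus follows from this choice and is not a result. Capitals mark a match to the TEAD motif GGAATG, on either strand. The CDKN2B run is 192 bases at chr9:22009364-22009555 and the CCND3 run is 210 bases at chr6:41941849-41942058, both on the minus strand.
CDKN2B: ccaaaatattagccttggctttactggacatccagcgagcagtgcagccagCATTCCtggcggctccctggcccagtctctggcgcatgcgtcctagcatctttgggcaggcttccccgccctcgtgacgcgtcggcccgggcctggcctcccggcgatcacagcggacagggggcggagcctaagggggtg
CCND3: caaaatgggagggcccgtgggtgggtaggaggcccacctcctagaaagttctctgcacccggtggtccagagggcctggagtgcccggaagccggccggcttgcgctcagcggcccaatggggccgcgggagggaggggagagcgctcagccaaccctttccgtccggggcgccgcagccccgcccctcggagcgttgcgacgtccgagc

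Of 7 motifs searched on both strands of the full windows, TEAD was the 1 found at CDKN2B, from 199 to 194 bases before the start, and 14.0% of all 35116 windows hold it. The CCND3 window shown held a TEAD match from 41 to 36 bases before its start, which begins at the last base of the run and extends past it, so it is not in capitals. Another CCND3 window held the FOXO motif GTAAACA across its start (3.42% of all windows). The windows of CDKN2C held the E-box CACGTG at 2 starts (7.26% of all windows) and TEAD at 2. The single windows of CDKN1A, CDKN1B and CCNE1 held none of the 7. None of the members' windows held the E2F motif searched (TTTCCCGC or TTTGGCGC or TTTCGCGC or TTTGCCGC, 3.31% of all windows), AP-1 (TGACTCA, 4.95%), the CHR (TTTGAA, 15.2%) or SMAD (GTCTAGAC, 0.202%). These matches describe letters only, and the table does not say which start the cells used.

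The values were deposited as log2 numbers, read from their form as log2(FPKM + 1), FPKM being a measure of fragments that is scaled for the length of the transcript and for the size of the library. Depth is unknown without read counts, and the spread between samples is the error given throughout. The labels do not say whether the samples of a group came from separate cultures, so the p-values measure the spread between these samples, which may be technical. Across the 12656 rows with a mean of at least 1, correlations among the parental samples were 0.995 to 0.996, those of adapted replicates 2 and 3 with each other 0.992, and those of adapted replicate 1 with these 0.977 to 0.978 (across genes, which are not independent replicates). The epithelial markers EPCAM, CDH1, KRT7, KRT8, KRT18, KRT19 and EGFR were at 7.08 or higher in every sample, and their summed level was 4251 to 4287 FPKM in parental and 4022 to 4330 FPKM in adapted samples. Within this sum KRT7 rose by 1.07 on the log2 scale, while KRT19, KRT18 and KRT8 fell by 0.75, 0.57 and 0.28 (limma, adjusted p = 2.19e-04, 4.74e-04, 0.00427 and 0.0477), and the other 3 did not pass the threshold. Of 4 leukocyte markers, CD3E was listed at 0 in all 6 samples, PTPRC did not exceed 0.08, and the 1 tested, CD68, fell from 6.25 ± 0.02 to 4.40 ± 0.50 on the log2(FPKM + 1) scale (SD, n = 3 each, limma, adjusted p = 3.63e-04). The summed level of 3 endothelial markers was 1.13 to 1.86 FPKM in parental and 1.42 to 3.47 FPKM in adapted samples, and these went apart, with PECAM1 at 1.35 and 0.0634, CDH5 at 0.156 and 2.39 and VWF at 0.0202 and 0.181 FPKM (not tested, since all 3 average under 1). That of 4 fibroblast markers was 3.04 to 3.15 and 7.61 to 9.19 FPKM, nearly all of it COL1A1 (3.06 and 7.86 FPKM). The part of these markers in the results was not tested. The labels describe an RNase R step, which digests linear RNA, while the study's methods name total RNA without it.

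In parental cells CCND1 was the most abundant member at 55.4 ± 2.37 FPKM (SD, n = 3), ahead of CDKN1B at 35.9 ± 0.0763, CCND3 at 24.9 ± 0.685 and CDKN1A at 8.70 ± 0.270 FPKM. CDKN2C, CDKN2B and CCNE1 followed at 4.89, 4.20 and 4.15 FPKM, and neighbours among these 3 overlapped. CCNE2 stood below them at 2.09 ± 0.162 FPKM and CDKN1C at 0.672 ± 0.227 FPKM. In adapted cells the mean of CCND1 was 45.3 ± 10.0 FPKM and that of CDKN2B 38.2 ± 13.5 FPKM. Their order turned on adapted replicate 1, where CCND1 was at 56.5 and CDKN2B at 22.7 FPKM, while in replicates 2 and 3 CDKN2B was the most abundant member (47.7 and 44.1 FPKM, with CCND1 at 42.3 and 37.1 FPKM). The values of CCND1, CDKN2B and CDKN1B (31.5 ± 3.30 FPKM) overlapped from one to the next. Below CDKN1B there was a gap to CCND3 (12.0 ± 3.37 FPKM). From CCND3 down to CCNE2 (3.21 ± 0.0743 FPKM) each neighbour in the order overlapped the next. CCND2 was the 1 member without appreciable signal. It was listed at 0 in 3 of the 6 samples and at no more than 0.0109 FPKM in the others, so it was not tested and no fold is given.

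**Figure D1:**
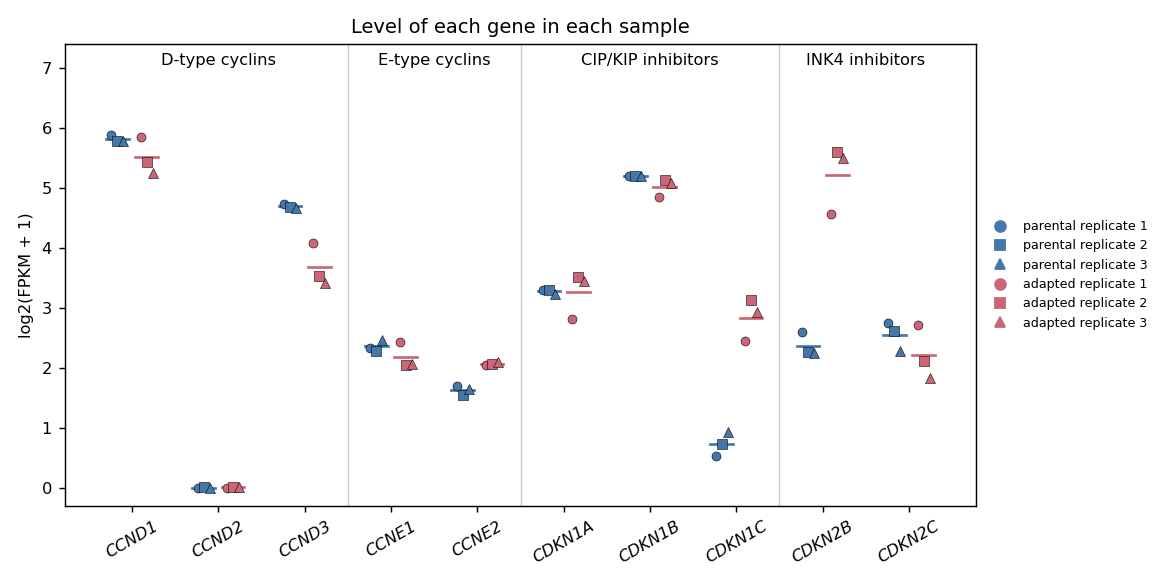
Level of each of the 10 genes in each sample as log2(FPKM + 1), with a mark per replicate and a bar at the group mean (n = 3 each). CDKN2B and CDKN1C sit higher in all 3 adapted samples and CCND3 lower, while adapted replicate 1 stands away from replicates 2 and 3 in most genes.

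Of the INK4 inhibitors among the members, CDKN2B rose steeply and CDKN2C did not pass the test. The CDKN2B gene runs from 22002903 to 22009363 of chromosome 9, minus strand (GENCODE v29, GRCh38). Its log2(FPKM + 1) was 2.59, 2.26 and 2.25 in parental replicates 1 to 3 and 4.57, 5.61 and 5.49 in adapted replicates 1 to 3. Every adapted value lay above every parental value, and adapted replicate 1 was the lowest of its group. The log2 fold change was 2.85 (SE 0.26, 95% interval 2.23 to 3.47, limma, adjusted p = 1.22e-04), larger than in 99.7% of the rows tested, and the mean FPKM was 9.09 times higher in adapted cells. In bulk RNA, a larger number of cells with a transcript and more transcript per cell cannot be told apart. The antisense gene CDKN2B-AS1 overlaps CDKN2B and has no row here, and whether reads were counted by strand is not given in the sources used here, so reads of both cannot be told apart.

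CDKN2C encodes p18, which like p15 binds CDK4 and CDK6. Its values were 2.74, 2.61 and 2.28 in parental and 2.71, 2.11 and 1.83 in adapted replicates. The groups overlapped, since adapted replicate 1 lay among the parental samples. The log2 fold change was -0.33 (SE 0.23, limma, adjusted p = 0.253), and -0.57 without adapted replicate 1 (adjusted p = 0.0126).

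Among the CIP/KIP inhibitors, CDKN1C rose from a low level, and neither CDKN1A nor CDKN1B passed the test. CDKN1C is on chromosome 11 from 2883213 to 2885773, minus strand. It measured 0.53, 0.73 and 0.93 in parental and 2.45, 3.14 and 2.93 in adapted replicates on the log2 scale, with no overlap. The log2 fold change was 2.11 (SE 0.19, 95% interval 1.67 to 2.55, limma, adjusted p = 1.02e-04), and on the FPKM scale the mean went from 0.672 to 6.30, a ratio of 9.37. All 3 parental values were under 1 on the log2 scale, so CDKN1C passed the filter on the mean only through the adapted group.

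CDKN1A, the p21 gene, gave 3.30, 3.30 and 3.23 in parental cells. The adapted replicates split around these, with 2.81 in replicate 1 and 3.52 and 3.45 in replicates 2 and 3. The mean difference was -0.02 (SE 0.18, 95% interval -0.44 to 0.40, limma, adjusted p = 0.938). Without adapted replicate 1 it was 0.21 (adjusted p = 0.0175), so the direction and the call of CDKN1A both turn on that sample.

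CDKN1B, the p27 gene, was the steadiest member in parental cells, at 5.21, 5.20 and 5.20. In adapted cells it was 4.85, 5.13 and 5.08, all below the parental values. The difference of -0.18 (SE 0.08, limma) had an adjusted p of 0.0903, and without adapted replicate 1 it was -0.10 (adjusted p = 0.0960). The groups thus did not overlap, yet the threshold was not passed with either set of samples.

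The D-type cyclins moved unequally. CCND3 fell, and CCND1, the cyclin D1 gene, did not pass the test. CCND3 (chromosome 6, 41934933 to 42050357, minus strand) was 4.74, 4.69 and 4.66 in parental and 4.08, 3.53 and 3.42 in adapted replicates. All adapted values were lower, and replicate 1 lay closest to the parental samples. Its log2 fold change was -1.02 (SE 0.16, 95% interval -1.40 to -0.64, limma, adjusted p = 0.00146), and its mean FPKM was 2.07 times higher in parental than in adapted cells.

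CCND1, on chromosome 11 from 69641087 to 69654474 on the plus strand, was 5.89, 5.79 and 5.78 in parental samples and 5.85, 5.44 and 5.25 in adapted samples. Adapted replicate 1 was within the parental range and replicates 2 and 3 were below it. The difference was -0.31 (SE 0.14, 95% interval -0.64 to 0.03, limma, adjusted p = 0.103). Without adapted replicate 1 it was -0.47 (adjusted p = 8.62e-04). LTO1 overlaps CCND1 on the other strand and lay higher in each adapted sample (3.83, 3.76 and 3.58) than in any parental sample. Reads of LTO1 and CCND1 cannot be told apart either, and the part of LTO1 in these values was not tested.

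The E-type cyclins, the partners of CDK2, also moved unequally. CCNE2 rose from 1.69, 1.54 and 1.64 to 2.05, 2.07 and 2.10. It was the 1 tested member whose adapted samples lay closer together than its parental samples, and adapted replicate 1 did not stand apart in it. The log2 fold change was 0.45 (SE 0.08, limma, adjusted p = 0.00230) and the mean FPKM was 1.53 times higher in adapted cells. NDUFAF6 and INTS8 overlap CCNE2 on the other strand. On the log2 scale NDUFAF6 was at most 3.95 in parental and at least 4.12 in adapted samples. INTS8 went the other way, from at least 4.96 to at most 4.75. Whether reads were counted by strand is not given, so reads of these genes and of CCNE2 cannot be told apart. Their part in the rise of CCNE2 was not tested. CCNE1 was 2.33, 2.28 and 2.47 in parental and 2.44, 2.05 and 2.06 in adapted samples, and these overlapped. Its difference was -0.18 (SE 0.12, limma, adjusted p = 0.241), or -0.31 without adapted replicate 1 (adjusted p = 0.0112).

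In all, 9 of the 10 members passed the filter, and 4 of these 9 (44.4%) passed limma's threshold of 0.05 on the adjusted p, with 3 higher after Osi and 1 lower. Among all rows tested the same threshold was passed by 56.9%, by 30.7% upward and by 26.2% downward, so the share of members called was not above the background with all 6 samples. CDKN1C is counted here although it passed the filter only through its adapted values, and 3 of the other 8 tested members (37.5%) passed the threshold. The groups did not overlap in 5 of the 9 members (55.6%), against 66.3% of all rows tested. The median log2 fold change was -0.18 over the 9 members and 0.03 over all rows. A change of 1 log2 unit or more in either direction, past the threshold, was seen in 3 of the 9 members and in 10.5% of the rows tested. The 3 were CDKN2B, CCND3 and CDKN1C, the last with the limit of the filter just given.

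**Figure D2:**
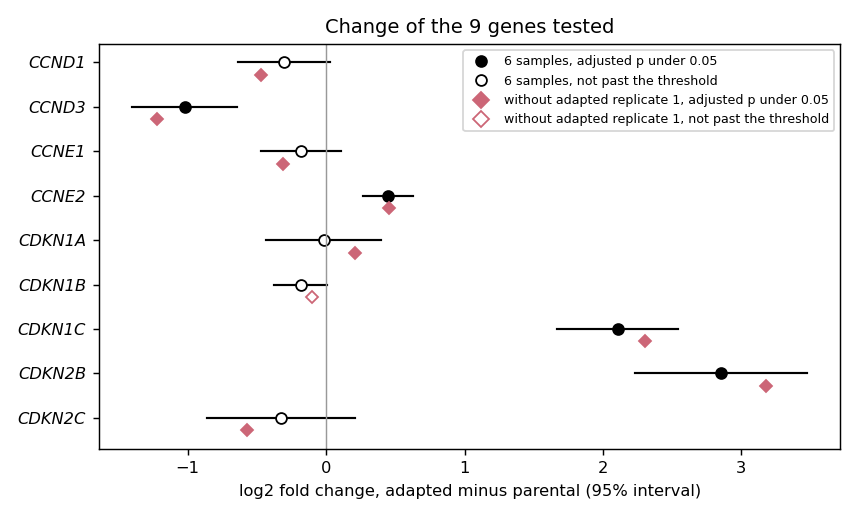
Log2 fold change of the 9 genes tested, adapted minus parental, with its 95% interval from limma (circles, 3 samples a group) and the value without adapted replicate 1 (diamonds, 2 adapted samples). Filled marks are past an adjusted p of 0.05. CDKN2B and CDKN1C lie above 1.67 over their whole intervals, and CDKN1A changes side without adapted replicate 1.

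Adapted replicate 1 set most of the spread among the members. In 8 of the 9 it differed from both other adapted samples by more than they differed from each other, compared with 49.2% of all rows tested. In 7 of the 9 it was the adapted sample nearest the parental mean, compared with 48.0% of all rows. The exceptions to the latter were CDKN1A and CDKN1B, where it lay furthest below the parental mean. Without it, 8 of the 9 members (88.9%) passed the threshold, 4 higher and 4 lower, and 8370 rows in place of 7202 (66.1%) did so. The share of members called was thus below that of all rows with adapted replicate 1 and above it without that sample. The same sample had more of the transcripts of cycling cells. The mean log2 value of 11 genes of replication licensing and S phase entry was 4.38 in adapted replicate 1 and 3.83 and 3.84 in replicates 2 and 3, after 4.85 to 4.90 in parental samples. For the 5 genes of the list of later cyclins and the mitotic CDK it was 3.98, 3.34 and 3.23 in adapted replicates 1 to 3 and 5.34 to 5.36 in parental samples. The part of this difference in the members' values was not tested.

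Summed over each family, the D-type cyclins were lower in adapted cells, and the sum of the INK4 members CDKN2B and CDKN2C was higher. The D-type sum was 83.8, 78.9 and 78.2 FPKM in parental and 72.4, 52.9 and 46.8 FPKM in adapted samples, without overlap. CCND1 made up 69.0% ± 0.352 of it before and 79.1% ± 1.01 after Osi (SD, n = 3 each). This shift in share was of nearly one size in all 3 adapted samples, including replicate 1 (78.0%, 80.0% and 79.3%). The sum of CDKN2B and CDKN2C went from 10.7, 8.92 and 7.61 FPKM to 28.2, 51.0 and 46.6 FPKM, 4.62 times the parental mean. CDKN2B made up 46.3% ± 3.45 of it in parental and 89.5% ± 7.90 in adapted cells. With the other INK4 genes, CDKN2A and CDKN2D, added, the sum of all 4 was 163 to 167 FPKM in parental and 174 to 188 FPKM in adapted samples, 1.10 times the parental mean, because CDKN2A was far above the rest. Of this larger sum the CDKN2B share was 2.54% ± 0.403 before and 20.8% ± 6.80 after Osi (n = 3 each, SD). Each of these 6 differences had p = 0.1 in a two-sided exact permutation test over samples, the smallest that 3 against 3 allow, so this design cannot reach 0.05 with that test.

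The other sums stayed closer to their parental values. The CIP/KIP sum was 45.1 to 45.4 FPKM in parental samples and 38.3, 52.3 and 49.4 FPKM in adapted samples, which lay on both sides of them (exact permutation test, p = 0.8). Within it, CDKN1C went from 1.49% ± 0.507 to 13.3% ± 1.62 and CDKN1B from 79.3% ± 0.198 to 68.1% ± 4.02 (SD, n = 3 each, exact permutation test, p = 0.1 for each). Even after its rise, CDKN1C was thus below CDKN1B in each adapted sample. The E-type sum was 5.78 to 6.66 FPKM in parental and 6.32 to 7.56 FPKM in adapted samples and overlapped (exact permutation test, p = 0.4). CCNE2 made up 33.5% ± 1.88 of it before and 47.7% ± 5.27 after Osi (p = 0.1, exact permutation test).

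**Figure D3:**
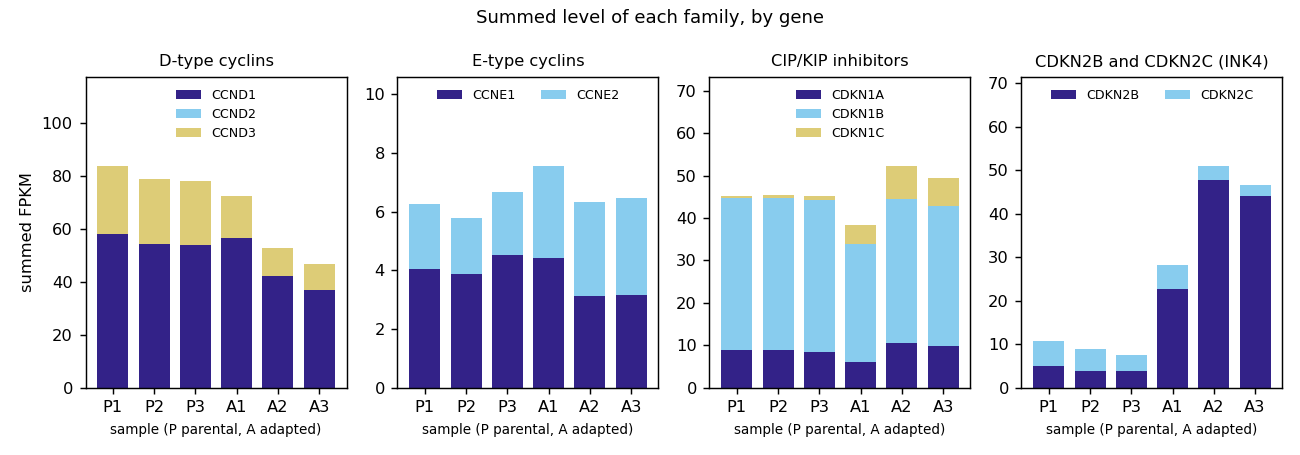
Summed FPKM of each family in each sample, stacked by gene, with CDKN2B and CDKN2C alone of the INK4 genes (P1 to P3 parental, A1 to A3 adapted replicates, no error bars since each bar is 1 sample). The bars of CDKN2B and CDKN2C grow from at most 10.7 to at least 28.2 FPKM through CDKN2B, and the D-type bars shrink from at least 78.2 to at most 72.4 FPKM.

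The kinases that these proteins act on were next compared. CDK2, the partner of the E-type cyclins, fell from 4.51 ± 0.04 to 3.91 ± 0.10 on the log2(FPKM + 1) scale (SD, n = 3 each, limma, adjusted p = 4.06e-04). CDK4 was far more abundant than any cyclin, at 1133 ± 46.9 FPKM in parental and 1368 ± 182 FPKM in adapted cells. Its log2 difference of 0.26 was not past the threshold (limma, adjusted p = 0.0772), although the groups did not overlap, and it passed when adapted replicate 3 was left out (1 of the 3 kinases then higher in place of 0). CDK6, the other partner of the D-type cyclins, gave 13.3 ± 0.811 and 13.6 ± 1.09 FPKM, a log2 difference of 0.03 (SE 0.08, limma, adjusted p = 0.778). Of the 3 further inhibitors, CDKN3, a phosphatase of CDKs, fell by 1.34 on the log2 scale and CDKN2D (p19) fell by 0.46 (adjusted p = 0.00104 and 0.0271 from limma). CDKN2D lost its call when any 1 sample other than adapted replicate 1 was left out, so that CDKN3 alone passed, and without adapted replicate 1 all 3 inhibitors fell past the threshold. CDKN2A, which encodes p16 and ARF and is named here after its values were seen, was at 153 ± 1.44 FPKM in parental and 138 ± 5.91 FPKM in adapted cells, above each of the 5 inhibitors of the 10 members, with a log2 difference of -0.15 (limma, adjusted p = 0.0701).

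Genes of CDK phosphorylation, of S phase entry and of mitosis were mostly lower in adapted cells. Of the 8 genes of the CDK-activating kinase and the CDK phosphatases and kinases, 5 fell and 0 rose past the threshold (62.5% lower against 26.2% of all rows, limma, with a median log2 fold change of -0.83 against 0.03 over all rows). The 5 were the CDC25 phosphatases, WEE1 and PKMYT1, so activators and inhibitors of CDKs are pooled in this count. The CDK-activating kinase genes CDK7, CCNH and MNAT1 did not pass (0.07, 0.12 and -0.15, limma, adjusted p = 0.314, 0.204 and 0.248). PKMYT1 and these genes are named after their values were seen. CDC25C and CDC25B, phosphatases that remove inhibitory phosphates from CDKs, fell by 2.03 and 1.88, and WEE1, the kinase that places them, fell by 1.23 on the log2 scale. The 5 genes of the list of later cyclins and the mitotic CDK all fell (median -1.77), with CDK1 at -2.50, CCNB2 at -2.22 and CCNB1 at -1.77. Of 11 genes of replication licensing and S phase entry 10 fell and 0 rose (90.9% lower against 26.2% of all rows, median -0.76). Among them CDT1 fell by 2.01, CDC6 by 1.23 and CDC45 by 1.05. MCM3 was the 1 that did not pass (-0.21, limma, adjusted p = 0.242), and it is named after its values were seen. The values of CCNE2, itself a gene of the G1 to S boundary, were thus higher in samples in which most genes of S phase entry were lower. The limit from NDUFAF6 and INTS8, which overlap CCNE2, holds here too.

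The RB and E2F genes and the ligases that destroy the members gave smaller changes. Of 10 pocket protein and E2F genes, 7 fell and 1 rose (median -0.31), with E2F2, RBL1 (p107) and E2F1 at -0.64, -0.64 and -0.63 and TFDP2, a dimer partner of E2F, at 0.35. In this list 80.0% were called and 70.0% were called lower, against 56.9% and 26.2% of all rows tested. Without adapted replicate 1, 2 genes of this list rose. Of 13 genes that turn over G1 cyclins and CDK inhibitors, 6 fell and 1 rose (median -0.35), and these 53.8% are close to the 56.9% of all rows tested. By direction, 46.2% of this list were called lower and 7.69% higher, against 26.2% and 30.7% of all rows tested. CKS1B, the cofactor by which SKP2 binds p27, fell by 1.43, CKS2 fell by 1.43, and DTL, which targets p21, fell by 1.35. DDB1, the adaptor on which DTL works, was 0.41 log2 units higher (adjusted p = 5.17e-04 from limma).

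**Figure D4:**
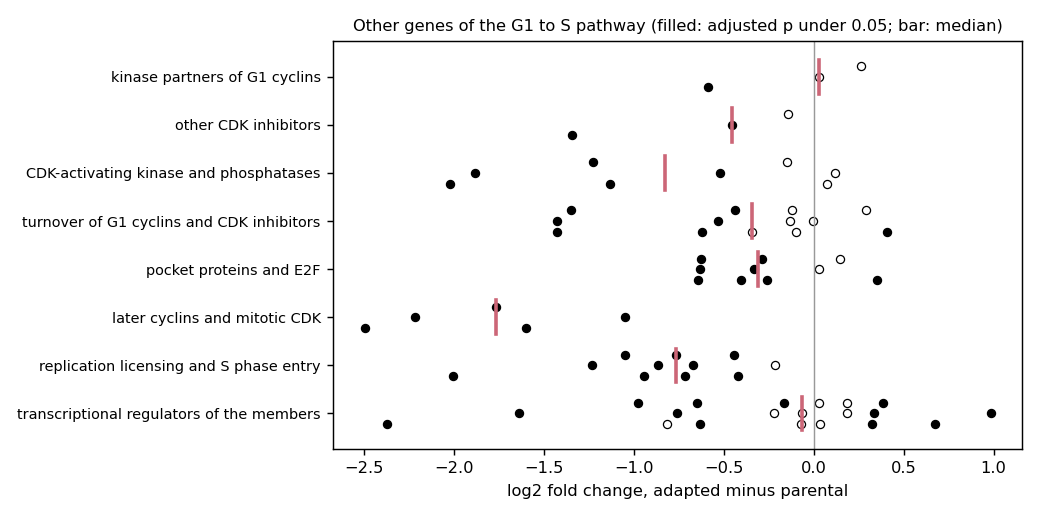
Log2 fold change, adapted minus parental, of the other genes of the G1 to S pathway in 8 lists, with 1 circle per gene tested (filled where the adjusted p from limma was under 0.05) and a bar at the median of the list. Later cyclins and licensing genes lie to the left of 0, while the transcriptional regulators lie on both sides.

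Of 21 factors known to act on the transcription of the members, 20 were tested, and 5 rose and 7 fell past the threshold (median -0.07), with 3 in place of 5 rising when parental replicate 3 was left out. The share called was 60.0%, near the 56.9% of all rows tested, so the list did not stand out and the genes below are examples picked by size. FOXO4, of the family that activates CDKN1B, rose by 0.99 and TEAD1 rose by 0.39 log2 units (adjusted p = 6.09e-05 and 0.0116 from limma). FOXO1 and FOXO3, of the same family as FOXO4, did not pass (-0.22 and -0.07, limma, adjusted p = 0.0703 and 0.419). These genes are named after their values were seen. FOS, part of the AP-1 factor downstream of ERK, fell by 2.37, CEBPB fell by 1.64 and KLF4, an activator of CDKN1A, fell by 0.98. The 74 genes of these 8 lists include no tested row with values off the decimal grid described in the methods, nor do the 10 members.

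The genes closest in pattern were sought for the member that rose most and the one that fell most past the threshold. Pearson's r over the 6 samples was taken against 7563 genes that have a symbol and average 3 or more, as a description only, since the samples form 2 groups and share their adapted replicate 1. For CDKN2B the closest were PDPK1, a kinase that activates AKT (r = 0.9992), MISP, a mitotic spindle protein (0.9991), and TOM1L2 (0.9989), which were higher in adapted cells by 0.49, 0.89 and 0.78 on the log2 scale. For CCND3 they were TM4SF1 (r = 0.9995), RRM2, a subunit of ribonucleotide reductase (0.9992), and PBK, a mitotic kinase (0.9992), which were lower by 1.28, 1.32 and 1.52. Over 0.99 were 231 genes for CDKN2B and 170 for CCND3, so these are the first of many.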

How the data were processed

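RNA of H1975 cells was sequenced (3 parental, 3 adapted samples). The authors deposited 1 table of log2 values, 27216 rows by 6 samples, with columns matched to samples by group and replicate number. The scale is not named. It was taken as log2(FPKM + 1), since undoing it gave numbers with 6 decimals (within 0.001 of the last decimal place) in all but 147 rows. The submitters' processing notes list hg38, Bowtie2 2.1.0, STAR and edgeR without roles. The quantifier and annotation are not given in the sources used here. The authors' methods name DESeq2 for their own test, which models counts, and limma was used here on the log2 values.

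Rows with a mean of at least 1 (12656) were tested with limma 3.58.1 in R 4.3.3 (lmFit, eBayes with an intensity trend, unpaired, Benjamini-Hochberg over all rows, threshold 0.05). Family sums and shares used FPKM in exact permutation tests (scipy 1.17.1, Python 3.11). On simulated data with 200 of 12656 rows changed by 1 log2 unit, limma called 87% of them and 3.33% of its calls were unchanged rows. The simulation gave both groups the same spread within a row and changed few rows. In the real data 56.9% of rows were called and 80.2% had a larger range in adapted than in parental samples. The simulated rates therefore check the code and do not give the error rates of the real fit.

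The members and lists were chosen with earlier results of these data known. Genes named outside the members were up to 3 that rose and 3 that fell most, past the threshold without overlap, in each list, all 3 kinase partners, and the 3 genes most like CDKN2B and CCND3. A result that this rule selects is not reported here. Alternatives covered the pseudocount, filters, scalings, eBayes settings, the replicate block, left-out samples and rows. Same-numbered samples did not deviate together (r = -0.05, -0.03 and -0.02), so they were not paired. Protein sequences were not used here.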

Additional observations from a re-analysis of the deposited data

How the results depend on the processing

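CCND3, CCNE2, CDKN1C and CDKN2B kept their direction and their calls under every alternative in which they were tested (17, 16, 16 and 17 settings), with log2 fold changes of -1.22 to -0.89, 0.39 to 0.60, 1.96 to 3.06 and 2.66 to 3.18. CDKN1B stayed below 0 throughout (-0.24 to -0.10) and passed the threshold in no setting (limma, adjusted p = 0.0519 to 0.190). Adapted replicate 1 decided the calls of CCND1, CCNE1, CDKN1A and CDKN2C, and the cause was not tested. With each of the 6 samples left out in turn, the log2 fold change ranged from -0.47 to -0.18 for CCND1, -0.31 to -0.11 for CCNE1, -0.15 to 0.21 for CDKN1A (0.21 without adapted replicate 1) and -0.57 to -0.13 for CDKN2C, and the number of members past the threshold from 4 to 8. The CIP/KIP sum, 1.41 FPKM higher in adapted cells, was -1.41 FPKM without adapted replicate 2 (range -1.41 to 5.60), and the CDKN1A share, -0.634 percentage points, was 0.827 without adapted replicate 1 (range -1.40 to 0.827). With CDKN2A and CDKN2D added, chosen after seeing the data, the summed INK4 difference was 17.1 in place of 32.9 FPKM. A filter at a mean of 3 left 7693 rows, of which 4532 passed, and 2 members past the threshold, since CCNE1, CCNE2, CDKN1C and CDKN2C were then not tested. At that filter 3 genes of the CDK-activating list, 4 of the pocket protein and E2F list and 1 further inhibitor fell past the threshold, in place of 5, 7 and 2, since fewer were tested, and 1 further inhibitor fell with no filter. With a limit on the fold change, 1328 rows passed. With the replicate block 6761 rows passed and the same 4 members, CCNE2 with an adjusted p of 0.0101. The block changed no other call of a member. Low values limit CCND2 and the parental level of CDKN1C, because no depth is known.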
